A study of Mus musculus with 4 samples.

Results

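The genes described here are 32 genes of the unfolded protein response and the amino acid response, taken by symbol from a fixed list and found, all 32, among the 53715 gene IDs of the deposited count table. They are described as an XBP1/ATF6 arm of 19 genes, the 3 stress sensors Ern1, Atf6 and Eif2ak3, and an ATF4 arm of 10 genes. RNA was sequenced from thymic invariant natural killer T (iNKT) cells of C57BL/6 mice aged 6 to 8 weeks, which were sorted as 7AAD- cells positive for the CD1d tetramer and for TCRβ. The 2 libraries called WT came from mice labelled WT. The 2 libraries called Mettl3 knockout came from mice labelled Mettl3fl/flCD4-cre, in which Cre driven by Cd4 acts in all thymocytes that pass through a Cd4-expressing stage and not in iNKT cells alone. METTL3 is the catalytic subunit of the enzyme that writes m6A on mRNA, and the study asks how it regulates iNKT cells.

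The libraries held 24374587 to 28316016 counts. Nothing in the labels says that the libraries of a genotype are from different mice, and any p-value is then set by how far these libraries differ, a difference that may be technical. In these bulk samples, fewer cells of a type and less RNA per cell cannot be told apart. Mettl3 itself was at 92.2 and 124 CPM (CPM are counts scaled by the size of each library) in WT and at 78.1 and 91.4 CPM in the knockout libraries. Both knockout libraries were the lower ones, but the difference missed the threshold (log2 fold change -0.35, SE 0.19, edgeR adjusted p = 0.357). The value for Mettl3 was -0.12 against WT replicate 1 alone and -0.56 against WT replicate 2 alone. The counts cover the whole gene and so include any exons outside the deleted part. The labels do not say which exons are deleted, and the cause of the size of this difference was not tested. The edgeR adjusted p-values come from its quasi-likelihood test and were adjusted over all 14185 tested genes by Benjamini-Hochberg, a gene is called at an adjusted p under 0.05, and every fold change is the knockout over WT.

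Proteins that enter the endoplasmic reticulum (ER) are folded there by chaperones, and a surplus of unfolded protein is sensed by IRE1 (encoded by Ern1), ATF6 and PERK (encoded by Eif2ak3). IRE1 splices the Xbp1 mRNA into the form that encodes the active factor XBP1, and ATF6 is cut to release its own active fragment. Both factors raise genes of chaperones and of ER-associated degradation (ERAD), which returns misfolded proteins to the cytosol. PERK, and the kinase GCN2 when amino acids are scarce, phosphorylate the translation factor eIF2, which lets the factor ATF4 be made, and ATF4 raises genes of amino acid synthesis and uptake. Counts per gene do not separate the spliced from the unspliced Xbp1 mRNA, and they do not measure the phosphorylation of eIF2 or the translation of ATF4.

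The ER stress element (ERSE), read by ATF6 and XBP1 together with the factor NF-Y, was found in promoters of the XBP1/ATF6 arm and in none of the ATF4 arm, and its sequences are shown because they describe the promoters of that arm. RefSeq promoter windows of 300 bases (GRCm38.p6, 250 bases before to 50 after a gene's start) were at hand for 17 of the 19 genes of the XBP1/ATF6 arm, 2 sensors and all 10 genes of the ATF4 arm. The ERSE, searched as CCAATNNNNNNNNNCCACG on both strands, was in the windows of 8 of 17 genes of the XBP1/ATF6 arm, against 37 of 27025 genes overall (0.137%), and in none of the 2 sensors or the 10 genes of the ATF4 arm. The 8 genes were Hspa5, Hsp90b1, Calr, Canx, Pdia6, Dnajc3, Creld2 and Syvn1. ERSE-II, searched as ATTGGNCCACG, was in Herpud1 and Dnajb11 of this arm and in 0.0444% of all genes. The arms were listed as genes under XBP1 and ATF6 or under ATF4 before the promoters were searched. The counts of elements in them therefore describe the lists and test nothing. The windows are printed in part, from 5′ to 3′ on the gene's strand, with the fixed letters of the element in capitals; where the element lies on the other strand the capitals read as its reverse.
Hspa5 ERSE, chr2:34772005-34772063, plus strand: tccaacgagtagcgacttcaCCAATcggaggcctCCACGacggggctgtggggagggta
Pdia6 ERSE, chr12:17266471-17266529, plus strand: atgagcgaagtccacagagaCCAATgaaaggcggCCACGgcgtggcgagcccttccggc
Calr ERSE, chr8:84847055-84847113, minus strand: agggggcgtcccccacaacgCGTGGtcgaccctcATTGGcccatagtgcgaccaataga
Hsp90b1 first ERSE, chr10:86705618-86705676, minus strand: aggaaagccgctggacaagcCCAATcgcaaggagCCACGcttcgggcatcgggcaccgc
Hsp90b1 second ERSE, chr10:86705513-86705571, minus strand: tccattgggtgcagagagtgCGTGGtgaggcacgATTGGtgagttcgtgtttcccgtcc
Herpud1 ERSE-II, chr8:94386357-94386407, plus strand: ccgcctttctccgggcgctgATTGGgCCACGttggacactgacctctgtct

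The C/EBP-ATF response element (CARE), to which ATF4 binds with C/EBP partners, was searched as TGATGNAA on both strands. It was in the windows of 3 of 10 genes of the ATF4 arm (Asns, Slc7a11 and Trib3) and of 1 of 17 genes of the XBP1/ATF6 arm (Herpud1), against 4.51% of all genes. This motif is short, and a match is a description and not a site. The window of Slc7a11 held 2 matches; that of Trib3 lay after the start and is not printed. A further element of XBP1, the UPRE, searched as TGACGTGG on both strands, was in none of the members' windows and in 0.714% of all genes.
Asns CARE, chr6:7693210-7693252, minus strand: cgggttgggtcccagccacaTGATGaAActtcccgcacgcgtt
Slc7a11 first CARE, chr3:50443652-50443699, minus strand: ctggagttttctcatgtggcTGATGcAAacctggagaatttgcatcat
Herpud1 CARE, chr8:94386297-94386344, plus strand: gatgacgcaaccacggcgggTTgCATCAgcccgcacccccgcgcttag

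The levels of these genes spanned the range of the tested genes, from the top with Pdia3 to the bottom with Trib3. Levels between genes are given as RPKM, CPM per kilobase of exon. Pdia3, a disulfide isomerase that works on glycoproteins, had the highest level, a WT mean of 804.9 RPKM, above 99.9% of the tested genes. Phgdh, the first enzyme of serine synthesis, followed at 332 RPKM, and then the calcium-binding lectin chaperone gene Calr at 284 RPKM, Hsp90b1 at 227 RPKM and Hspa5 at 206 RPKM. Between Hsp90b1, Hspa5, Pdia4, Sdf2l1 and Canx, at means of 190.4 to 227 RPKM, the values of the WT libraries overlapped from each gene to the next. Not every chaperone gene was this high. The cochaperone genes Dnajb9, Creld2 and Dnajb11 were at 24.6, 19.8 and 19 RPKM, above 82.5%, 79.3% and 78.5% of the tested genes, and Hyou1 was at 5.21 RPKM, above 52.8%. At the other end Asns, which makes asparagine, was at 0.8 RPKM, the cystine transporter gene Slc7a11 at 0.119 RPKM and the pseudokinase gene Trib3 at 0.0753 RPKM. Ern1 was the lowest of the sensors at 1.88 RPKM, against 5.67 for Atf6 and 5.13 for Eif2ak3. The sum over the XBP1/ATF6 arm was 7806 and 9089 CPM in WT and 8979 and 8769 CPM in the knockout, and that over the ATF4 arm was 1743 and 1445 CPM against 1638 and 1621 CPM, so the genotypes overlapped in both sums.

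**Figure D1:**
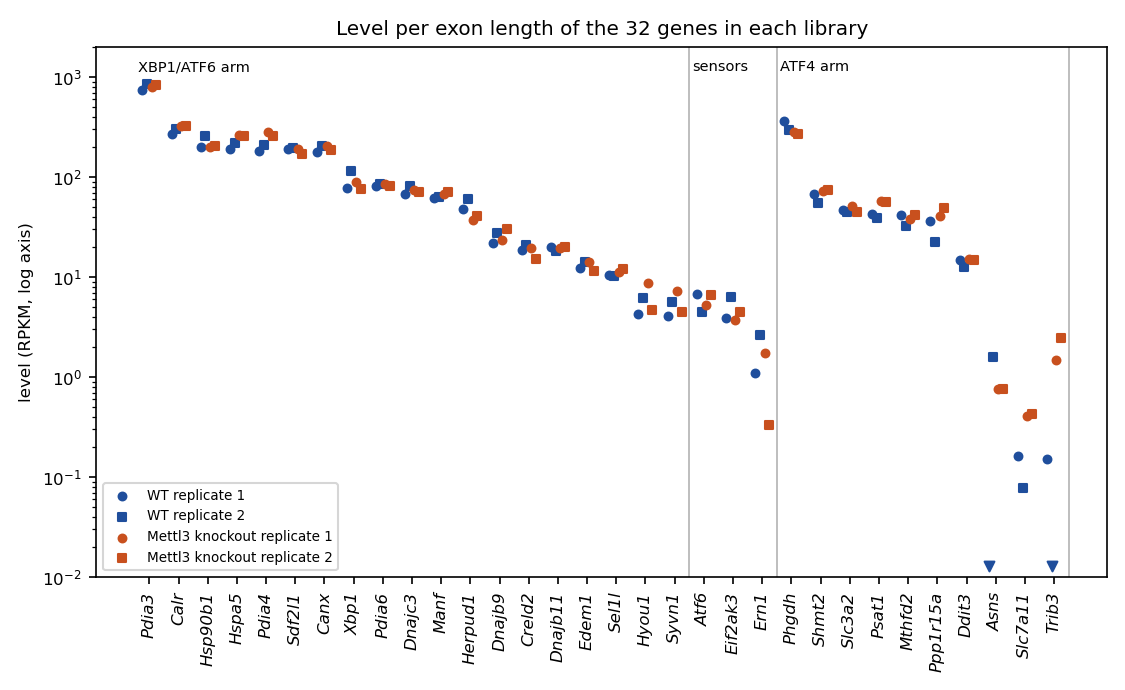
Level of each of the 32 genes in each library, as RPKM on a log axis, ordered within the XBP1/ATF6 arm, the sensors and the ATF4 arm by the WT mean; circles are replicate 1, squares replicate 2, and triangles at the lower edge mark libraries with a count of 0 (Asns in WT replicate 1, Trib3 in WT replicate 2). Levels run from 804.9 RPKM for Pdia3 to 0.0753 RPKM for Trib3 in the WT mean.

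No gene of either arm passed the test between genotypes, at a background of 2.59% of all tested genes called in either direction. Of the 32 genes, all of which were tested, 0 were called by edgeR, while DESeq2 called 4 as higher in the knockout (Pdia4, Hspa5, Psat1 and Trib3), at a background of 9.4% of genes called by DESeq2. At an unadjusted p under 0.05, edgeR gave 6 higher and 2 lower, where 20.2% of all genes reached it. Both knockout libraries lay above both WT libraries for 10 genes and below them for 2, where 25.4% and 24.9% of all tested genes did, or 50.3% together. Total-count scaling called 1 member (Pdia4; 2.85% of all genes) and the filter of 5 CPM in 2 libraries 2 (Pdia4 and Psat1; 7.39% of all genes). Limma voom (1.99% of all genes called), edgeR with no filter beyond 1 count (1.13%), the replicate block (0.233%) and the fits without WT replicate 1 (2.35%), WT replicate 2 (1.04%), knockout replicate 1 (0.606%) and knockout replicate 2 (0.62%) called 0 members. The 95% interval of the fold change lay within 2-fold in either direction for 24 of the 32 genes, against 43.3% of all tested genes. In 1 run of simulated counts of 14185 genes in this design, edgeR recovered 38% of the genes given a log2 change of 1 and 81% of those given a log2 change of 2. The changed genes were drawn from those with a mean above 5 CPM, so the rates do not cover genes as low as Trib3, Asns and Slc7a11. The simulated spread followed the average trend over level. The median SE was 0.16 for the members and 0.31 for all tested genes, so the rates are not those of the members.

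Among the 19 genes of the XBP1/ATF6 arm, the log2 fold change was above 0 for 12 and below 0 for 7, where 51.3% of all tested genes were above 0, and its median was 0.05 beside 0.02 for all tested genes. The sign of that median turned with the libraries used: it was -0.05 with WT replicate 1 left out (8 of 19 above 0), -0.03 with knockout replicate 1 left out (8 of 19), and 0.13 with WT replicate 2 left out (15 of 19). The range was narrow, from -0.47 to 0.47, and the interval lay within 2-fold for 17 of the 19. Hspa5 (ENSMUSG00000026864.13; GRCm38 chromosome 2, 34771970 to 34777547), which encodes BiP, the chief ER chaperone and the protein that holds the sensors inactive, was at 806 and 933 CPM in WT and at 1109 and 1084 CPM in the knockout. Both knockout libraries lay above both WT libraries by a log2 value of 0.33 (SE 0.09, 95% interval 0.11 to 0.56), which edgeR did not call (adjusted p = 0.114) and DESeq2 did (adjusted p = 0.0204). Against WT replicate 2 alone the value for Hspa5 was 0.22. Hsp90b1, the ER member of the HSP90 family, was at 802 and 1030 CPM in WT and at 806 and 823 CPM in the knockout; WT replicate 2 stood above the other 3 libraries. Hyou1, a BiP relative that helps it exchange nucleotide, was at 31.0 and 44.3 CPM against 62.8 and 34.1 CPM, so the knockout libraries fell on either side of WT replicate 2.

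Pdia4 (ENSMUSG00000025823.9; chromosome 6, 47796141 to 47813430), a disulfide isomerase, had the lowest p of the arm. It was at 440.2 and 497 CPM in WT and at 681 and 618 CPM in the knockout, with no overlap, a 1.39-fold difference (log2 0.47, SE 0.10, 95% interval 0.23 to 0.72, edgeR adjusted p = 0.0635). It passed with DESeq2 (adjusted p = 0.00111), with total-count scaling (edgeR adjusted p = 0.0415) and among genes at 5 CPM or more in 2 libraries (edgeR adjusted p = 0.0274). The intervals of the other isomerases were centred near 0. Pdia3 was at 2346 and 2707 CPM against 2520 and 2595 CPM, with a log2 fold change of 0.02 (95% interval -0.18 to 0.21). Pdia6, which works with BiP, was at 302 and 317 CPM against 318 and 303 CPM, with an interval of -0.23 to 0.24. The lectin chaperone gene Calr was at 769 and 869.5 CPM against 936 and 924 CPM (log2 0.18, edgeR adjusted p = 0.314), with the knockout libraries above; the value was 0.087 against WT replicate 2 alone and 0.28 against WT replicate 1 alone. Its membrane-bound relative Canx was at 836 and 951 CPM against 970 and 875 CPM, which overlapped.

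Herpud1 (ENSMUSG00000031770.16; chromosome 8, 94386438 to 94395377), a scaffold of the ERAD complex that both ATF6 and ATF4 can induce, was the one gene of the arm with both knockout libraries below WT. It was at 112 and 142 CPM in WT and at 87.1 and 96.3 CPM in the knockout. Its log2 value was -0.47 (SE 0.16, 95% interval -0.85 to -0.08, edgeR adjusted p = 0.172), and -0.29 without WT replicate 2. The ubiquitin ligase gene Syvn1 and its partner Sel1l, the core of the same complex, had log2 fold changes of 0.28 and 0.15, and Edem1, which delivers glycoproteins to it, -0.04. Sel1l was at 90.6 and 88.6 CPM against 96.1 and 103.2 CPM, with no overlap, while Syvn1 and Edem1 overlapped.

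Xbp1 was at 250.3 and 377 CPM in WT and at 288 and 248 CPM in the knockout, with a log2 fold change of -0.22 (95% interval -0.67 to 0.23, edgeR adjusted p = 0.579) that was 0.10 without WT replicate 2. WT replicate 2 held the highest value. The J-domain cochaperone genes Dnajb9, Dnajb11 and Dnajc3, whose products steer BiP to its clients, had log2 fold changes of 0.12, 0.06 and -0.04. The small ER-resident genes Sdf2l1, Manf and Creld2 had -0.09, 0.14 and -0.18. Of these 6, Manf alone had no overlap, at 218 and 225 CPM against 237 and 252 CPM.

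**Figure D2:**
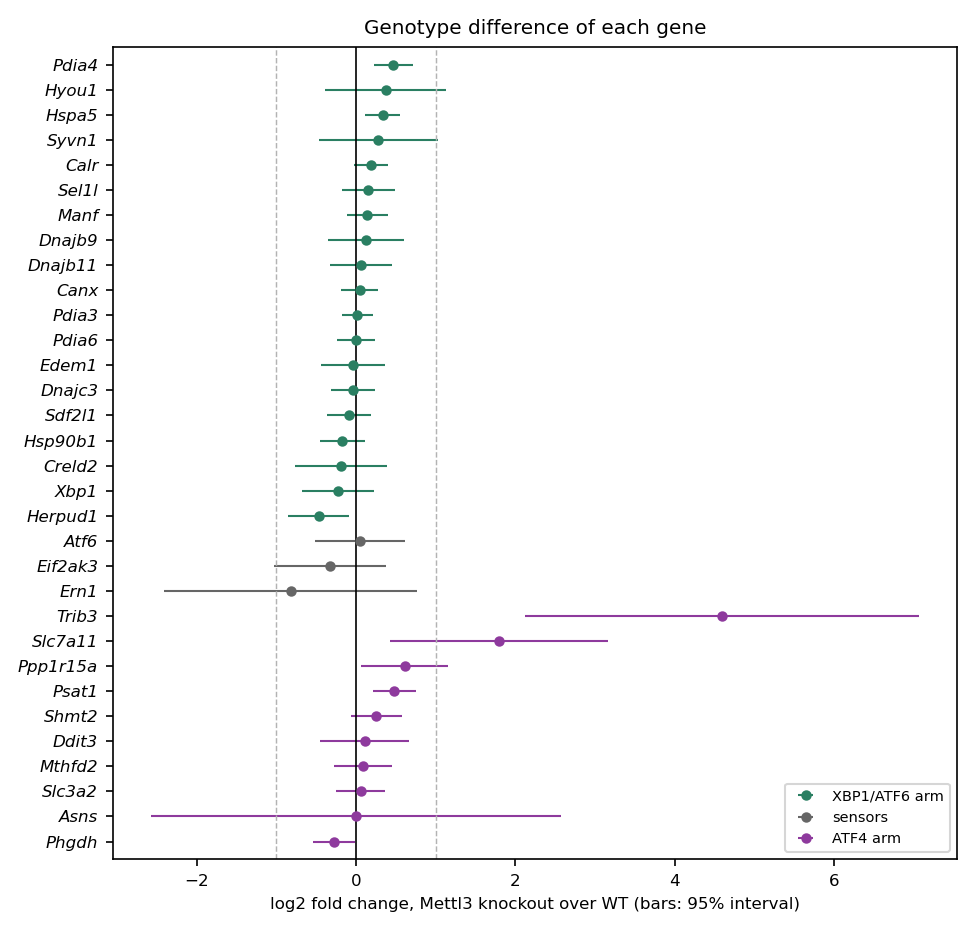
Log2 fold change of the Mettl3 knockout over WT for each of the 32 genes, with its 95% interval from edgeR; dashed lines mark 2-fold in either direction. The log2 fold changes of the XBP1/ATF6 arm lie between -0.47 and 0.47, and the intervals of 17 of its 19 genes lie within 2-fold. Trib3, at 4.59, stands far from the rest of the ATF4 arm with a wide interval.

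The 3 sensor genes overlapped between genotypes and had wide intervals. Ern1 was at 8.89 and 21.8 CPM in WT and at 14.2 and 2.73 CPM in the knockout, so the libraries of 1 genotype differed more than the genotypes did. Atf6 was at 63.0 and 41.8 CPM against 48.6 and 60.5 CPM, and Eif2ak3 at 23.5 and 38.3 CPM against 22.2 and 26.9 CPM. Their log2 fold changes were -0.82, 0.05 and -0.32 (edgeR adjusted p = 0.566, 0.94 and 0.612), and the interval of Ern1, -2.41 to 0.77, resolves no direction. Over the 4 fits that each left out 1 library, the value of Ern1 ran from -2.47 to -0.05.

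In the ATF4 arm the log2 fold change was above 0 for 9 of 10 genes and below 0 for 1, where 51.3% of all tested genes were above 0. The 9 include Asns at 0.0010, for which no direction is resolved. The median was 0.18 beside 0.02 for all tested genes, and 0 of 10 were called. With WT replicate 1 left out the median was 0.34, and with limma voom, which put Asns at 3.09, it was 0.37. Under the other settings it ran from 0.18 with no filter to 0.23 with total-count scaling. Above 0 were 8 of 10 with DESeq2, with no filter and in each fit that left out 1 library. Both knockout libraries lay above both WT libraries for 5 genes and below them for 1, beside 25.4% and 24.9% of all tested genes. Trib3 (ENSMUSG00000032715.9; chromosome 2, 152337422 to 152344032), a target of ATF4 and CHOP that restrains ATF4, had 9 and 0 counts in the WT libraries and 82 and 130 counts in the knockout libraries. That was 0.32 and 0 CPM against 3.19 and 5.22 CPM, where 3 counts make 0.119 CPM in WT replicate 2. Both knockout libraries were above both WT libraries at a low level, with a fitted log2 value of 4.59 (SE 1.09, 95% interval 2.12 to 7.06). The adjusted p was 0.063 with edgeR, 0.0124 with DESeq2 and 0.233 with limma voom. Against WT replicate 2 alone the knockout was at least 35.2-fold higher at a floor of 3 counts, and against WT replicate 1 alone the log2 value was 3.69.

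The other genes of the stress output were less far apart. Ppp1r15a (ENSMUSG00000040435.12; chromosome 7, 45522916 to 45526268), which encodes GADD34, the subunit that brings a phosphatase to eIF2, was at 105.8 and 65.4 CPM in WT and at 119 and 144 CPM in the knockout. WT replicate 2 was the low library, and the log2 value of 0.61 (SE 0.23, edgeR adjusted p = 0.196) dropped to 0.31 with WT replicate 2 left out and came to 1.0 with WT replicate 1 left out. Ddit3, which encodes CHOP, the factor that links lasting ER stress to cell death, was at 25.5 and 21.9 CPM against 25.9 and 25.4 CPM, with a log2 fold change of 0.11 (95% interval -0.44 to 0.66) that was 0.0071 against WT replicate 1 alone and 0.22 against WT replicate 2 alone.

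Genes of serine and folate metabolism were abundant, and of the pair that follow each other in serine synthesis Psat1 was the higher and Phgdh the lower in the knockout, neither past the test. Psat1 (ENSMUSG00000024640.9; chromosome 19, 15904678 to 15947337), the transaminase of serine synthesis, was at 181 and 165 CPM in WT and at 245 and 239.7 CPM in the knockout, a 1.40-fold difference with no overlap (log2 0.48, SE 0.12, 95% interval 0.21 to 0.75, edgeR adjusted p = 0.0771). It passed with DESeq2 (adjusted p = 0.00232) and among genes at 5 CPM or more in 2 libraries (edgeR adjusted p = 0.0422). Phgdh (ENSMUSG00000053398.11; chromosome 3, 98313170 to 98339990), which acts just before Psat1 in the same route, was at 906 and 742 CPM in WT and at 696 and 666 CPM in the knockout, both below WT (log2 -0.28, SE 0.11, edgeR adjusted p = 0.223; -0.13 without WT replicate 1). Shmt2, which splits serine in mitochondria, was at 211 and 171 CPM against 226 and 230.3 CPM, with no overlap (log2 0.26, edgeR adjusted p = 0.346; 0.11 against WT replicate 1 alone and 0.41 against WT replicate 2 alone). Mthfd2, the next enzyme of the mitochondrial folate route, overlapped, at 145 and 114 CPM against 133 and 144 CPM.

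Asns, a standard marker of the amino acid response, had 0 and 110 counts in the WT libraries and 53 and 52 in the knockout libraries, or 0 and 4.38 CPM against 2.06 and 2.09 CPM, where 3 counts make 0.107 CPM in WT replicate 1. The WT libraries stood on either side of the knockout, and the interval of the log2 fold change, -2.57 to 2.57, resolves no direction. Slc7a11 (ENSMUSG00000027737.10; chromosome 3, 49892526 to 50443614), the cystine and glutamate exchanger, had 63 and 27 counts in WT and 148 and 150 in the knockout. At 2.24 and 1.08 CPM against 5.75 and 6.02 CPM the groups did not overlap (log2 1.80, SE 0.58, 95% interval 0.43 to 3.17, edgeR adjusted p = 0.148), and the value was 1.39 against WT replicate 1 alone and 2.44 against WT replicate 2 alone. Slc3a2, the heavy chain with which Slc7a11 and Slc7a5 pair, was at 166 and 160 CPM against 182 and 157 CPM, and its interval of -0.24 to 0.36 lay within 2-fold.

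In the wider pathway, 2 genes were called, both higher in the knockout and both of the amino acid response. Of 36 tested genes of that list, edgeR called 2 higher and 0 lower, against 1.09% and 1.51% of all tested genes. The log2 fold change was above 0 for 15 and below 0 for 21, with a list median of -0.04. At an unadjusted p under 0.05 with edgeR, 6 were higher and 4 lower, where 20.2% of all tested genes reached it. Sesn2 (ENSMUSG00000028893.8; chromosome 4, 132492032 to 132510501), a leucine sensor upstream of mTORC1, rose 2.38-fold, from 19 and 17.3 to 40.0 and 46.6 CPM (log2 1.25, SE 0.23, edgeR adjusted p = 0.041). Slc1a5 (ENSMUSG00000001918.17; chromosome 7, 16781340 to 16798274), a glutamine transporter, rose 1.42-fold, from 522 and 507 to 695 and 763 CPM (log2 0.50, SE 0.09, edgeR adjusted p = 0.041). Neither passed with any 1 of the 4 libraries left out, with edgeR adjusted p of 0.0902 to 0.194 for Sesn2 and 0.0572 to 0.232 for Slc1a5. Nor did they pass with the replicate number as a block (0.135 and 0.145).

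Other genes of that list with low p were Ddit4, an inhibitor of mTORC1, at 19.9 and 28.1 against 51.3 and 52.5 CPM (log2 1.12, edgeR adjusted p = 0.0534), and the large neutral amino acid transporter gene Slc7a5, at 38.6 and 35.2 against 68.9 and 60.0 CPM (log2 0.80, edgeR adjusted p = 0.0712). Slc1a4, a neutral amino acid transporter gene, went the other way, at 7.33 and 7.72 against 0 and 1.08 CPM (edgeR adjusted p = 0.059). The fitted log2 value of Slc1a4, -3.81, rests on a library at 0: it was -2.79 with knockout replicate 2 alone, and knockout replicate 1 was at least 64.5-fold lower than WT at a floor of 3 counts, 0.117 CPM. Cebpb, a partner of ATF4, was at 11.6 and 17.6 against 7.54 and 6.5 CPM (edgeR adjusted p = 0.19). Atf4 itself was at 233 and 227 CPM in WT and at 239 and 199.6 CPM in the knockout, and the 95% interval of its log2 fold change, -0.37 to 0.23, was centred at -0.07. Its dimer partner gene Cebpg was at 74.8 and 52.9 against 55.7 and 62 CPM. Atf5 and Atf3, both targets of the pathway, stayed at or under 2.21 CPM in every library.

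Of 64 other tested genes of ER folding and ERAD, edgeR and limma voom called 0, where they called 2.59% and 1.99% of all tested genes. At an unadjusted p under 0.05 with edgeR, 3 were higher and 5 lower, where 20.2% of all tested genes reached it. DESeq2 called 4, where it called 9.4% of all tested genes. The median edgeR log2 fold change of the 64 was 0.00. The lowest p-values were those of Dad1 (log2 -0.61, edgeR adjusted p = 0.099) and Stt3b (log2 0.48, adjusted p = 0.109), both of the complex that attaches N-glycans, and of Tram1 (log2 -0.34, adjusted p = 0.112), a helper of protein entry into the ER. Dnajc1, an ER J-domain gene, Spcs3, of the signal peptidase, and Prkcsh, of the glucosidase that trims N-glycans, had log2 fold changes of 0.44, -0.35 and 0.40 (edgeR adjusted p = 0.137, 0.181 and 0.19). Atf6b, a paralogue of Atf6, and Mbtps1, the protease that cuts ATF6, had 0.04 and 0.17. Of 15 genes of eIF2, its kinases and its regulators, edgeR, limma voom and DESeq2 called 0. At an unadjusted p under 0.05 with edgeR, 1 was higher and 1 lower, beside the same 20.2% of all tested genes. These were Impact, an inhibitor of GCN2 activation, at 0.40 and the phosphatase gene Ppp1cc at -0.38 (edgeR adjusted p = 0.24 and 0.151). Gcn1l1, which encodes the activator of GCN2, had 0.21, Eif2s1, the subunit that is phosphorylated, -0.22, and the eIF2B subunit genes Eif2b4 and Eif2b2 -0.61 and 0.20.

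**Figure D3:**
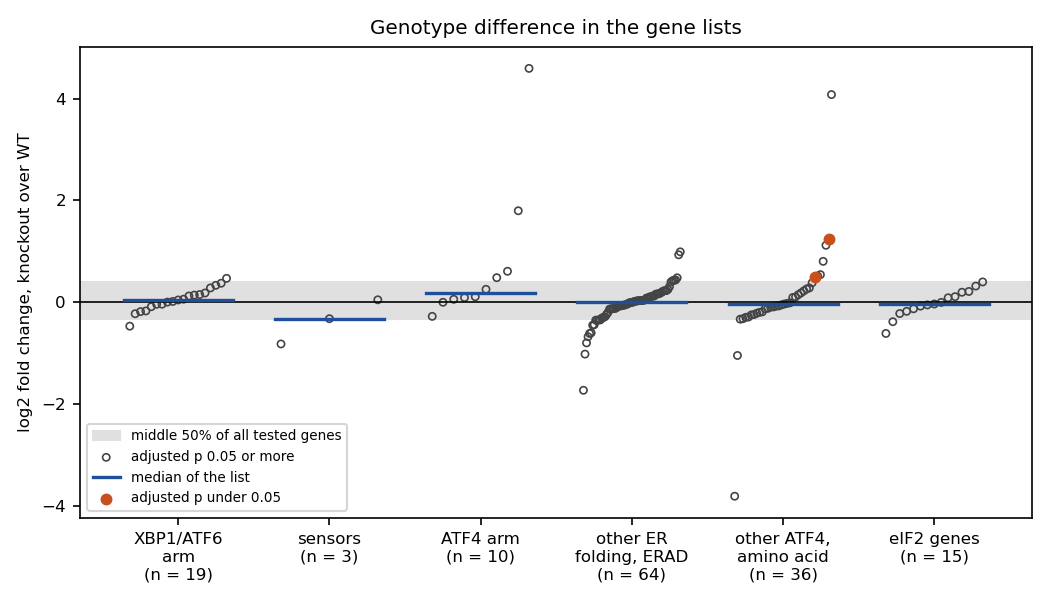
Log2 fold change of the knockout over WT for each tested gene of the 2 arms, the sensors and the 3 other lists; blue lines are list medians, filled points are called by edgeR, and the grey band holds the middle 50% of all tested genes, from -0.32 to 0.40. The 2 filled points, both in the list of other amino acid response genes and both above 0, are Sesn2 and Slc1a5.

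The WT libraries differed from each other along the arms. WT replicate 2 was above WT replicate 1 for 17 of the 19 genes of the XBP1/ATF6 arm, with a median log2 difference of 0.20, where 49.1% of all tested genes were higher in replicate 2. In the ATF4 arm it was the other way, with WT replicate 2 below WT replicate 1 for 9 of 10 genes and a median of -0.30; Asns was the exception. Between the knockout libraries, replicate 2 was above replicate 1 for 7 of 19 and 6 of 10 genes, with medians of -0.05 and 0.02. Among the larger differences in WT were those of Xbp1 (0.59), Hyou1 (0.51) and Syvn1 (0.48), and of Slc7a11 (-0.80) and Ppp1r15a (-0.69). Genes of an arm share the same pair of libraries, so their agreement describes this pair, and it was not tested. The sums of NKT1 and NKT2 marker genes also differed between these libraries, at 3901 and 4978 CPM of 10 NKT1 genes and at 2540 and 1917 CPM of 9 NKT2 genes in WT replicates 1 and 2; their part in the result was not tested.

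**Figure D4:**
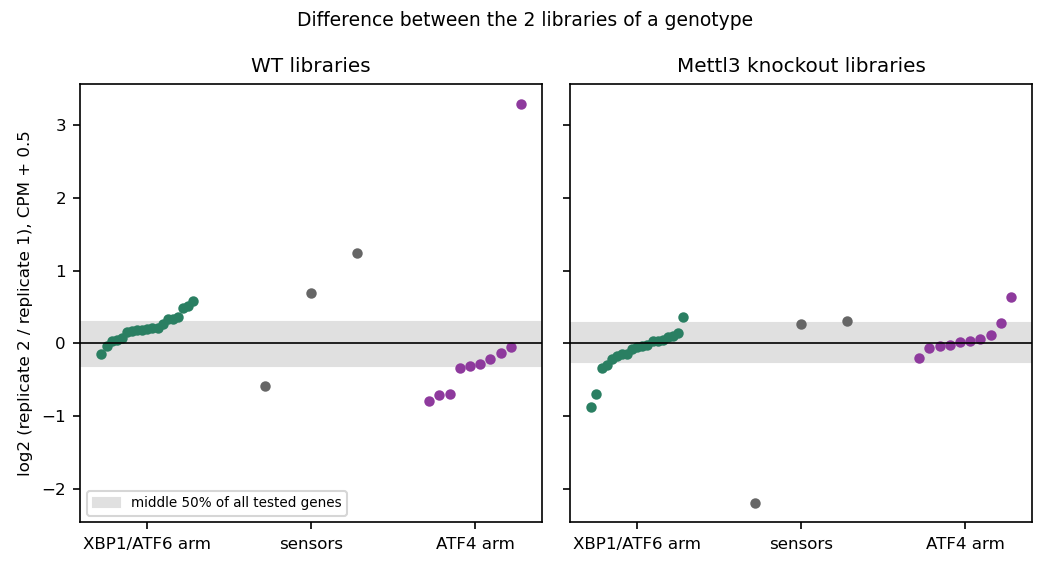
Log2 ratio of replicate 2 over replicate 1 (CPM plus 0.5) for each of the 32 genes, in WT on the left and in the Mettl3 knockout on the right; the grey band holds the middle 50% of all tested genes. In WT, 17 of the 19 points of the XBP1/ATF6 arm are above 0 and 9 of the 10 of the ATF4 arm are below it, while in the knockout both arms straddle 0.

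Marker genes of other cells and of iNKT subsets moved with genotype beside these values. Over 20 markers of dendritic cells and macrophages the sum was 203 to 326 CPM in WT and 2278 to 2421 CPM in the knockout. Of 19 tested, edgeR called 9 higher and 0 lower, where 1.09% and 1.51% of all tested genes were called. The log2 fold change was above 0 for 15 and below 0 for 4. Without overlap, 14 lay above WT and 1 below, where 25.4% and 24.9% of all tested genes did. H2-Ab1 had the highest level (29.3 and 55.1 against 591 and 656 CPM), and Flt3 was at 0 in both WT libraries. The 10 NKT1 markers summed to 3901 to 4978 CPM in WT and 2454 to 2497 CPM in the knockout (9 of 10 called lower). The 8 NKT17 markers summed to 388 to 469 and 91.3 to 103 CPM (6 of 8 called lower). Of 9 NKT2 markers 3 were called higher and 0 lower, with sums of 1917 to 2540 and 2637 to 2689 CPM. Above 0 were 7 and below 0 were 2, with 7 above WT without overlap and 1 below. CD4+CD8+ thymocyte markers summed to 395 to 502 and 655 to 683 CPM, with 0 of 9 called. Yet 8 of the 9 had a log2 fold change above 0 (median 0.51), and 5 lay above WT without overlap and 1 below. Sums of plasma cell markers, cells known for a strong XBP1 programme, overlapped between genotypes at 204 to 284 and 190.4 to 413 CPM, with 1 of 7 tested markers called higher, 1 called lower and Tnfrsf17 at 0 in all 4 libraries. Sums of B cell markers overlapped too, at 139 to 177 and 139 to 143 CPM, with 0 of 7 tested markers called and Pax5 at 0 in all 4 libraries. Yet 6 of the 7 had a log2 fold change above 0 (median 0.94). Of the 7, 4 lay above WT without overlap and 1 below, beside 25.4% and 24.9% of all tested genes. Granulocyte and erythroid markers stayed at or under 18.5 CPM in sum, and thymic stroma markers at or under 86.5 CPM with Psmb11 at 0 in all 4. The 12 markers of T cell and iNKT identity summed to 8417 to 9232 CPM in WT and 7917 to 8078 CPM in the knockout. Of them, 1 was called higher and 2 lower, and 5 lay above WT without overlap and 5 below. The part of these cells in the results on the 32 genes was not tested.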

How the data were processed

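The authors deposited raw read counts per gene, 1 column per library, from Smart-seq2 libraries, a protocol that does not mark strand (per the labels' protocols). The submitters' processing notes name build mm10 and, without their roles, DESeq2 1.18.1, HTSeq 0.6.1, STAR 2.6.0a and FastQC 0.11.5; their annotation and strand setting: not given in the sources used here. Of 53715 IDs, 53620 matched GENCODE M21 (GRCm38) without the version, which gave symbols and coordinates. Ddit3 stood on more than 1 ID, and the ID with counts was used. Reads of overlapping and antisense genes cannot be told apart by strand, and how they were counted is not given.

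Counts were analysed in R 4.3.3 with edgeR 4.0.16 (filterByExpr, TMM scaling and the two-sided quasi-likelihood F test of glmQLFTest, with legacy=FALSE and robust=TRUE; 2 residual degrees of freedom, no covariate), checked on simulated counts. SE is the log2 fold change over the square root of F. RPKM is CPM per kilobase of the union of a gene's exons. The alternatives were DESeq2 1.42.0, limma 3.58.1 voom, total-count scaling, other filters, a replicate block and leaving out each library over the same genes. Replicates differed beyond counting noise (chi-square per gene 42.5 within WT, 27.0 within the knockout) and were kept apart. Floors of 3 counts cover counting error only.

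The members and lists were chosen with earlier results of these data known. Named genes are all members, Mettl3, Atf4, Cebpg, Atf5, Atf3, Atf6b and Mbtps1, from each other pathway list the called genes and the lowest p-values up to 6, and from each marker list the defining genes at 0 and the gene of the highest level.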

Additional observations from a re-analysis of the deposited data

How the results depend on the processing

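Over all genes, edgeR called 368; DESeq2 called 1333, edgeR on genes at 5 CPM or more in 2 libraries 727, and fits that left out 1 library 86 to 333. The replicate number as a block left 33 calls over all genes and 0 of the members. Across genes, the difference between replicates 1 and 2 in WT was not correlated with that in the knockout (correlation -0.024). This value cannot settle what same-numbered libraries share, and the labels do not say. Of the 32 members, total-count scaling called 1, DESeq2 4 and the 5 CPM filter 2 (of 30; Trib3 and Asns fell below it); no library left out gave a call. In the XBP1/ATF6 arm the calls were 1, 2 and 1 under those 3 settings, and in the ATF4 arm 2 with DESeq2 and 1 with the 5 CPM filter. Of all tested genes, total-count scaling called 2.85%, DESeq2 9.4% and the 5 CPM filter 7.39%. Of the other ER list, DESeq2 called 4 and the fits without 1 library 0 to 1 (Tram1, without WT replicate 1). Of the other amino acid response list, DESeq2 and the 5 CPM filter each called 5, and the fit with no filter, the block and each fit without 1 library called 0. With 2 libraries a genotype, a fit that leaves 1 assumes that the lone library varies like the other genotype.

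Small log2 fold changes took the other sign in some fits, and the cause was not tested. Total-count scaling gave 0.017 for Dnajc3 and 0.018 for Edem1; Asns was at -0.076 with DESeq2 and at -0.0038 with no filter. Over the fits that each left out 1 library, Xbp1 ran from -0.50 to 0.099, Hyou1 from -0.14 to 0.74, Hsp90b1 from -0.35 to 0.023, Dnajb9 from -0.070 to 0.30, Dnajb11 from -0.0070 to 0.13, Dnajc3 from -0.17 to 0.099, Pdia3 from -0.092 to 0.13, Pdia6 from -0.040 to 0.041, Canx from -0.054 to 0.14, Edem1 from -0.20 to 0.11 and Syvn1 from -0.12 to 0.59. Among the sensors, Atf6 ran from -0.21 to 0.37 and Eif2ak3 from -0.65 to 0.064. In the ATF4 arm, Asns ran from -1.09 to a fitted 8.77 against the library at 0, Mthfd2 from -0.066 to 0.27 and Slc3a2 from -0.049 to 0.16. Of the factors, Atf4 ran from -0.20 to 0.054, Cebpg from -0.35 to 0.14, Atf5 from -0.16 to 1.69, Atf3 from -3.68 to 4.81 and Atf6b from -0.10 to 0.16. Without a change of sign, 1 library left out moved Sdf2l1 (-0.17 to -0.0021), Creld2 (-0.36 to -0.025), Sel1l (0.10 to 0.20), Mbtps1 (0.061 to 0.27), Dnajc1 (0.28 to 0.58), Spcs3 (-0.50 to -0.20), Eif2s1 (-0.30 to -0.14) and Eif2b2 (0.11 to 0.28) by over 1.5 times. Limma voom gave 3.09 for Asns. The low counts of Trib3, Asns and Slc7a11 limit what these libraries resolve.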

Other observations

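Genes that hold a stress element in their RefSeq promoter window but are not among the 32 were looked up by sequence alone. Of 29 such genes with an ERSE, 11 were tested and edgeR called 0, where 2.89% of all tested genes with a window were called; the log2 fold change was above 0 for 6 and below 0 for 5, with a median of 0.07. Derl3 and Alg12, known for ERAD and for building N-glycans, were among them and were picked out here after their values were seen. The mean level of Derl3 was 1.76 CPM in the WT libraries against 0.9 CPM in those of the knockout (edgeR adjusted p = 0.627), and that of Alg12 was 10.6 against 13.3 CPM (edgeR adjusted p = 0.629). Of 10 genes with an ERSE-II, 7 were tested, 0 were called, and 6 had a log2 fold change below 0, with a median of -0.18.

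The CARE, which is shorter and more common, was in the windows of 1215 genes outside the 32, of which 268 were tested; edgeR called 4 as higher and 6 as lower (3.73%), with a median of -0.01. Of 193 genes with a UPRE, 97 were tested, with 1 called higher and 1 lower (2.06%) and a median of -0.09.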
